A study of Mus musculus with 12 samples.

Results

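At day 5 after the injection of tumour cells, lung cells that carried the Cherry label were compared with lung cells that did not. The comparison rests on 6 libraries out of 12 in the series, the 3 titled Cherry+ and the 3 titled Cherry- at day 5, chosen by their titles. All mice were Balb/c females of 6 to 10 weeks that had received 4T1-labelling tumour cells intravenously, so the Cherry- cells also come from lungs that hold tumour cells, and no lung without tumour cells is among the libraries. Both groups were sorted as CD45-Ter119- cells from digested lung. The other 6 libraries are Cherry- and Cherry+ cells at day 10, from mice of the same description. Given the deposited values, they had no part in the size of a day 5 difference. Whether those values were made for all 12 libraries together is not stated in the sources used here. The day 10 libraries did have a part in the test of a day 5 difference. Each gene's spread and the choice of genes to test rest on all 12 libraries.

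4T1 is a mouse mammary carcinoma line that seeds the lung from the blood. What Cherry stands for is not spelled out in the labels. As background, labelling lines of this kind are built to secrete a cell-penetrating mCherry protein, which host cells close to a tumour cell take up, so that the label marks cells by where they lie and not by what type they are. CD45 is the surface antigen of leukocytes and Ter119 that of red blood cells and their precursors. What the gate leaves of a lung is endothelium, epithelium, fibroblasts and other mesenchyme, and the tumour cells themselves unless another step removes them. The epithelium makes surfactant and lines the alveoli and airways, the endothelium forms the capillary bed in which circulating tumour cells lodge, and the fibroblasts lay down matrix. A change in the proportions of these types and a change inside one type look alike in a bulk library. Fewer cells of a type and less RNA per cell cannot be told apart in any result below.

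The values are log2 expression levels, so a difference of 1 is a 2-fold change. They carry no correction for transcript length that the sources used here record, so a level is the strength of a gene's signal and not its number of transcripts. If the transform pulled weak signals together, differences of genes with few reads are understated, which was not tested. The rows carry identifiers of the UCSC known-gene series, called genes here, and 0 of 32958 could be paired with a symbol. Markers of lung cell types, of leukocytes and of the tumour line could not be looked up for this reason, and neither the cell types behind the label nor the success of the gate could be checked. Whether each library of a group is a separate mouse is not in the labels, so p-values reflect library-to-library spread only, part of which may be technical. The depth of the libraries is unknown.

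A pair of the day 5 libraries stood apart from their own groups. Cherry- replicate 1 differed from Cherry- replicates 2 and 3 by a root mean square of 0.749 and 0.774 log2 units over the 15842 genes tested, while those 2 differed from each other by 0.327. Cherry+ replicate 3 differed from Cherry+ replicates 1 and 2 by 0.647 and 0.622, against 0.360 between them. Between the groups the 9 pairs of libraries differed by 0.894 to 1.26, so that every pair across the label was farther apart than any pair within it. The first principal component of the 6 libraries held 67.8% of the variance and placed the Cherry- libraries at -71.3, -55.4 and -55.8 and the Cherry+ libraries at 68.4, 73.7 and 40.4. The 100 genes with the highest values took between 22.1% and 23.7% of the summed linear values in the Cherry- libraries and between 19.4% and 23.9% in the Cherry+ libraries.

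The label went with broad differences in both directions. A gene is called changed here at an adjusted p under 0.05 in limma, and 38.3% of the genes tested were, with 18.9% higher and 19.4% lower in Cherry+ cells. The near balance leaned to the rises under quantile normalisation, which called 3297 genes higher and 2842 lower. Of the 6070 genes called, 3091 changed by less than 1 log2 unit, which makes up 50.9% of them. In the middle of the distribution, the differences of all genes had a lower quartile of -0.54, a median of -0.04 and an upper quartile of 0.39. The tails were unequal, since the lowest 5% of genes lay under -1.92 and the highest 5% above 1.24. The low-value filter bears on this, as it let in 720 genes through Cherry- libraries alone and 134 through Cherry+ libraries alone. In the 14858 genes that met the minimum in 3 libraries of each kind, the same limits were -1.80 and 1.26. Rises of at least 1 log2 unit were called in 6.89% of the genes tested and falls of that size in 11.9%, and in 7.19% and 10.4% of those 14858 genes. Among the genes tested these were 1092 rises and 1887 falls. The excess of falls shrank with the scaling, to 1378 and 1567 under quantile normalisation and 1279 and 1571 under cyclic loess. Rescaling by median ratios gave 1182 and 1828. Changes of at least 2 log2 units were called in 303 genes that rose and 721 that fell, and changes of at least 3 in 77 and 144.

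**Figure D1:**
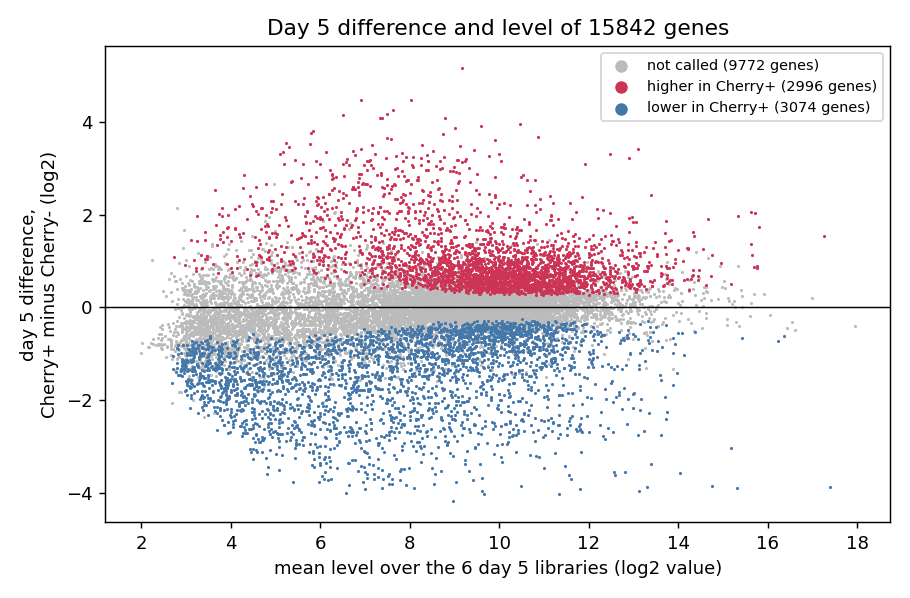
Each point is 1 of 15842 genes, with its mean log2 level over the 6 day 5 libraries on the horizontal axis and the Cherry+ minus Cherry- difference in log2 units on the vertical axis; 2996 genes called higher are red, 3074 called lower are blue and 9772 not called are grey. The falls end near -4 at levels above 7, whereas the largest rises lie at middle levels and reach 5.17.

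Counts of the largest changes depended on the scaling and on single libraries more than the count of all calls did. Changes of at least 3 log2 units numbered 110 rises and 105 falls on quantile-normalised values, cyclic loess gave 98 and 114, and rescaling by median ratios 84 and 135. The excess of falls at that size was thus largest on the deposited scale. Without Cherry+ replicate 3 they numbered 154 and 193, and without Cherry+ replicate 1 they numbered 41 and 166.

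Separation between the groups can also be read without a model. In 3789 genes, 23.9% of those tested, the lowest Cherry+ library lay above the highest Cherry- library, and in 4037 genes (25.5%) the highest Cherry+ library lay below the lowest Cherry- library. The empty interval between the groups was wider than 1 log2 unit in 323 of the genes that were higher and 1072 of those that were lower, and wider than 2 in 42 and 292. Which direction held more genes without overlap turned with the scaling, with 4280 higher and 3613 lower on quantile-normalised values, 4085 and 3756 with median ratios and 3902 and 3839 with cyclic loess. Intervals wider than 1 log2 unit were more frequent among falls under each of these, at 450 and 832, 355 and 1030, and 408 and 824 in the same order. Among the called genes, 151 that rose and 74 that fell had groups that overlapped.

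For the 9772 genes that were not called, the intervals show how much change the data leave room for. The 95% confidence interval of the difference, which is not adjusted for the number of genes, lay wholly between -1 and 1 in 6483 of them, 66.3%. It lay between -0.5 and 0.5 in 2363, or 24.2%. In 3289 genes it reached past 1 log2 unit in at least 1 direction, and for these a 2-fold difference was neither shown nor bounded. The width of each interval rests on the gene's spread over all 12 libraries and not on the day 5 libraries alone. At the other end, the whole interval lay above 1 in 401 genes and below -1 in 997.

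In the class of genes that rose most, the 3 Cherry+ libraries differed widely from each other. In the 77 genes called higher by at least 3 log2 units, the median level was 6.22, 6.32 and 6.09 in Cherry- replicates 1, 2 and 3. It was 10.29, 10.05 and 8.53 in Cherry+ replicates 1, 2 and 3. All Cherry+ values of this class were above the Cherry- values, gene by gene, in 77 of 77, against 23.9% of all genes tested. The class was chosen for large rises in these same libraries, which favours such a separation. Cherry+ replicates 1 and 2 differed from each other by a median of 0.24 log2 units per gene, but replicate 3 lay below their mean by a median difference of -1.84, and it was the lowest of the 3 in 66 of the 77 genes. The median SD of these genes was 1.09 in Cherry+ cells and 0.376 in Cherry- cells (n = 3 each). Without Cherry+ replicate 3 the median rise of the same genes was 3.91, against 3.28 with it.

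The same pattern held in smaller rises and shrank with their size. In the 226 genes that rose by 2 to 3 log2 units, the median levels were 9.36, 9.31 and 7.98 in Cherry+ replicates 1, 2 and 3, and 6.77, 6.28 and 6.28 in Cherry- replicates 1, 2 and 3. Replicate 3 was the lowest Cherry+ library in 190 of these. In the 789 genes that rose by 1 to 2 log2 units, it was the lowest in 526, with median levels of 9.93, 9.96 and 9.30 in the Cherry+ libraries. In the 1904 genes that rose by less than 1 log2 unit it was the lowest in 1233, and its level lay below the mean of the other two by a median difference of -0.22. These classes were formed from the same libraries, so their levels are a description.

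The falls were more alike between the Cherry+ libraries. In the 144 genes called lower by at least 3 log2 units, the median level was 8.99, 9.29 and 9.03 in Cherry- replicates 1, 2 and 3. It was 5.73, 5.41 and 5.76 in Cherry+ replicates 1, 2 and 3. All Cherry+ values lay below the Cherry- values in 144 of 144, against 25.5% of all genes tested. Here too the choice of the class favours such a separation. The median SD was 0.346 in Cherry+ and 0.165 in Cherry- cells (n = 3 each), and Cherry+ replicate 3 was the library nearest to Cherry- cells in 70 of the 144 genes, with a median distance of 0.27 from the mean of the other two. In the 577 genes that fell by 2 to 3 log2 units the median levels were 5.63, 5.38 and 5.83 in the Cherry+ libraries and 8.06, 8.10 and 8.12 in the Cherry- libraries. Replicate 3 was nearest to the Cherry- cells in 326 of these 577, in 640 of the 1166 falls of 1 to 2 log2 units and in 717 of the 1187 falls under 1. It thus lay to the same side in the falls as in the rises, by less in log2 units where the change was at least 1. In changes under 1 log2 unit its distances were alike, at 0.18 for falls and -0.22 for rises. Cherry+ replicates 1 and 2 differed from each other by a median of 0.41 in falls of at least 3 and 0.24 in falls of 1 to 2. There replicate 3 stood off by less, at 0.27 and 0.18. In falls of 2 to 3 and under 1 they differed by 0.32 and 0.15, and replicate 3 stood off by slightly more, at 0.36 and 0.18.

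**Figure D2:**
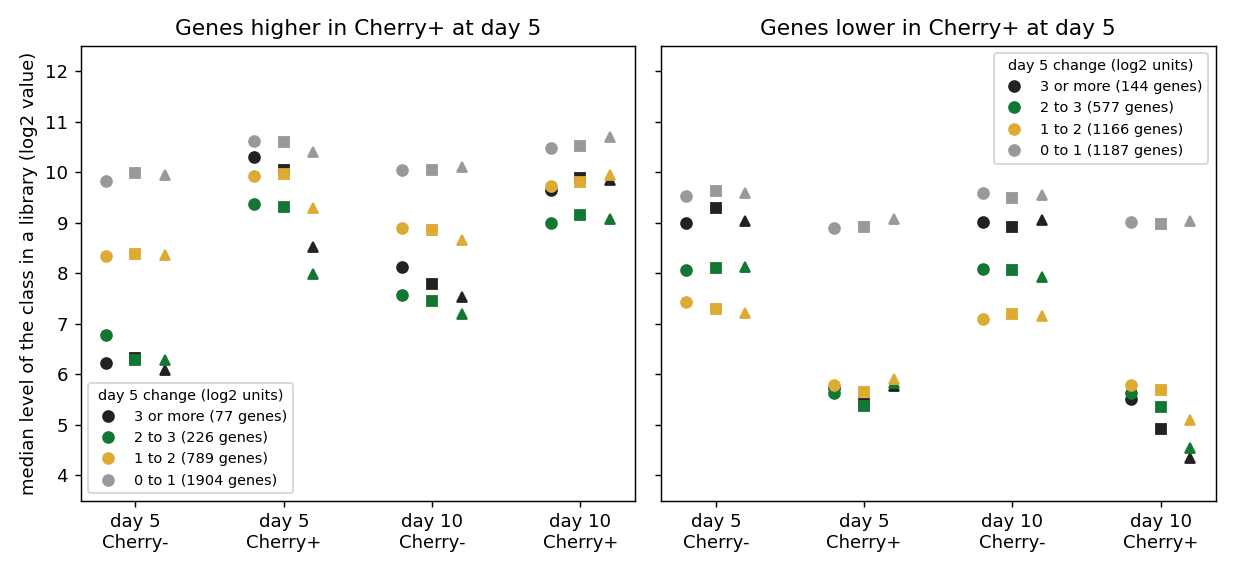
Each point is the median log2 level of a class of genes in 1 library, with replicates 1, 2 and 3 as circle, square and triangle; the classes are genes called higher (left) or lower (right) at day 5, by the size of the day 5 change. In the class of 77 genes with the largest rises, Cherry+ replicate 3 sits at 8.53 and the other Cherry+ libraries at 10.29 and 10.05, whereas in the 144 genes with the largest falls the day 5 Cherry+ libraries lie between 5.41 and 5.76.

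Among genes with a Cherry- level of at least 7, the largest falls were of similar size in each class of level. Genes were grouped by their mean level in Cherry- cells at day 5, and the 10 lowest differences of each group were taken, which makes them a description of the edge of the distribution and not a test. Among 3841 genes with a level of 7 to 9 these 10 differences lay between -4.01 and -3.69, with a median of -3.77. Among 5219 genes at 9 to 11 they lay between -3.91 and -3.71, with a median of -3.81. Among 1820 genes at 11 to 13 they spread more widely, between -4.17 and -3.34, with a median of -3.70. Among 332 genes above 13 they lay between -4.03 and -3.62, with a median of -3.87. The 10 lowest of a small group are a larger part of it, so the depths compared do not stand for equal shares of the groups. Genes below 7 were not examined in this way. The median standard error of a single gene was 0.263 to 0.287 log2 units in the 4 groups. On the linear scale the Cherry+ cells held 7.35%, 7.11%, 7.67% and 6.86% of the Cherry- level in these 4 groups of genes, in order of rising level.

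In single Cherry+ libraries the edge lay at slightly different depths. In the genes above 13, the median difference from the Cherry- mean was -3.65, -4.22 and -3.70 in Cherry+ replicates 1, 2 and 3. In the genes at 9 to 11 it was -3.75, -4.11 and -3.56. Replicate 2 thus had the deepest falls in both groups. The upper edge was not flat: the 10 largest rises had medians of 3.504, 4.08, 3.502 and 2.40 among genes with a Cherry+ level of 7 to 9, 9 to 11, 11 to 13 and above 13. These groups held 3569, 5106, 1919 and 363 genes, and the 10 largest of a small group are a larger part of it. The median standard error was 0.631, 0.621, 0.428 and 0.368, larger than for the falls. In the first 3 of these groups Cherry+ replicate 3 again lay lowest, at 2.26, 2.65 and 2.62, where replicate 1 was at 4.23, 4.76 and 4.04. At the highest levels the 3 libraries were close, at 2.52, 2.61 and 2.46.

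On the deposited scale the direction of change followed the level of the gene. The share called higher was 3.23% of genes with a mean level under 5 over the 12 libraries, 9.62% at 5 to 7, 17.3% at 7 to 9, 24.98% at 9 to 11, 34.6% at 11 to 13 and 37.4% above 13. The share called lower ran the other way, at 27.03%, 25.9%, 19.1%, 15.3%, 14.2% and 15.2% in the same order. The first of these shares rests in part on the low-value filter, as described below. The order was kept with median ratios, where the share called higher went from 3.51% under 5 to 38.4% above 13 and the share called lower from 26.5% to 13.8%. It depended on scalings that reshape each library. After quantile normalisation, which gives every library the same distribution, the share called higher was 11.3% under 5 and 30.3% above 13, and the share called lower was 16.1% and 17.2%. Cyclic loess, by which level-dependent offsets of one library against another are taken out, gave 13.03% higher and 14.4% lower under 5, and 20.5% higher and 24.2% lower above 13. Loess centres the differences at each level, so a balance of directions within a class follows from its construction. With both, the share of genes called was still larger at high than at low levels, where the median standard error was 0.346 log2 units on the deposited scale, against 0.149 at 11 to 13.

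The low-value filter had a part in the genes under 5. A linear value of 10 had to be reached in any 3 of the 12 libraries, and the 720 genes that met it through Cherry- libraries alone, like the 134 through Cherry+ libraries alone, were all of this class. Of the 720, 394 were called lower, where 27.03% of all genes under 5 were. Of the 134, 27 were called higher, where 3.23% of all genes under 5 were. Passing through 1 kind of cell alone by itself favours a difference in that direction. Among the 1495 genes of the class that met the minimum in 3 libraries of each kind, 53 were called higher and 275 lower. That share of falls was below the 25.9% called lower at 5 to 7. In these genes the order of falls by level thus did not hold under 5. The calls under 5 also moved with single libraries. The values of Cherry- replicate 1 in the class lay above the mean of its group by a median of 0.45 log2 units, with replicates 2 and 3 at -0.24 and -0.25. Without that library 116 genes under 5 were called higher and 529 lower, against 80 and 670 with it. Without Cherry- replicate 2 or 3, or Cherry+ replicate 1 or 2, the genes under 5 called higher numbered 44, 43, 43 and 52. Those called lower numbered 629, 675, 550 and 519 in the same order, so the fall to 529 was not particular to Cherry- replicate 1. Without Cherry+ replicate 3, 103 were called higher and 628 lower. Among genes at 5 to 7, those called higher numbered 143 in place of 219 without Cherry+ replicate 1.

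**Figure D3:**
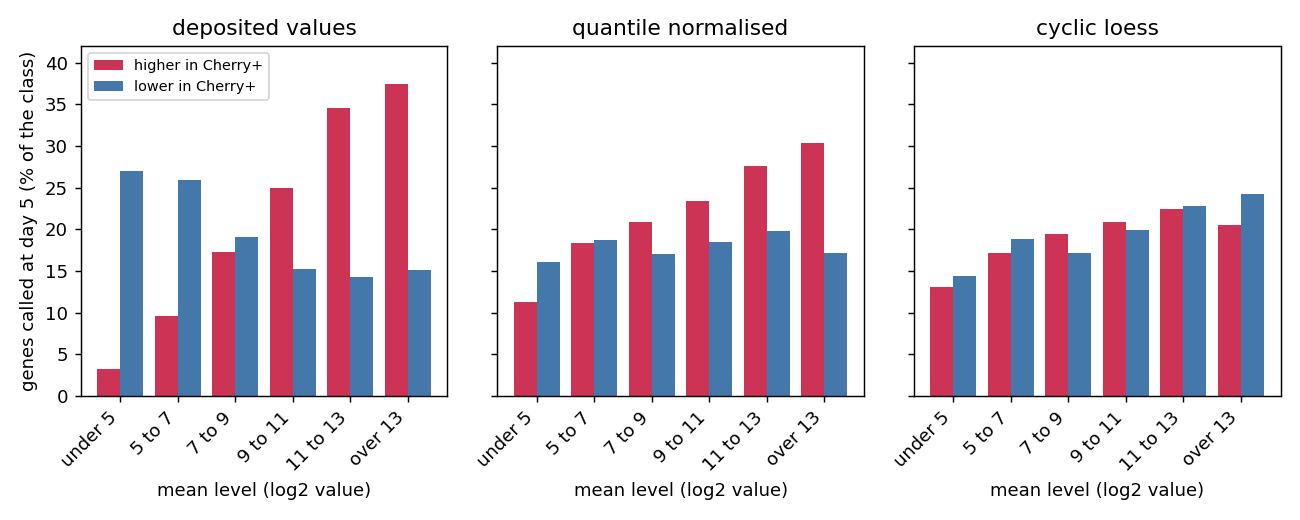
Bars give the share of genes called higher (red) or lower (blue) in Cherry+ cells at day 5, in percent of all genes tested in a class of mean log2 level, for the deposited values and after 2 other scalings. From the lowest to the highest class, the share called higher goes from 3.23% to 37.4% on the deposited values and the share called lower from 27.03% to 15.2%. After cyclic loess, which centres the differences at each level by construction, the share called higher goes from 13.03% to 20.5%. The share called lower then also goes up, from 14.4% to 24.2%.

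Whether the difference is seen in libraries that had no part in the calls was asked by leaving out a pair. A pair was 1 Cherry- and 1 Cherry+ library of the same number. The low-value filter had used all 12 libraries, so a pair left out still had a part in which genes were tested. With pair 1 left out, the other libraries called 784 genes higher by at least 1 log2 unit, and 762 of these were higher in the pair left out, or 97.2%, where 46.2% of all genes tested were higher in that pair. With pair 2 left out it was 737 of 739, against 48.5% of all genes, and with pair 3 left out 1266 of 1344, against 52.6%. Genes called lower by at least 1 log2 unit were lower in the pair left out in 1560 of 1570 for pair 1, 1519 of 1525 for pair 2 and 1909 of 1967 for pair 3, where 53.8%, 51.5% and 47.4% of all genes were lower. The direction was therefore carried by each of the 3 pairs.

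The size was not the same in the 3 pairs. Genes chosen as higher had a median difference of 1.73 in pair 1, where the libraries that chose them gave 1.64, and of 1.76 in pair 2, where these gave 1.53. In pair 3 it was 0.754, where the other libraries gave 1.497. Genes chosen as lower had medians of -1.89, -1.98 and -1.501 in pairs 1, 2 and 3, against -1.89, -1.90 and -1.79 in the libraries that chose them. Pair 3, which holds the Cherry+ library that stood apart, thus had the smaller rises, while its falls were nearer to those of the other pairs.

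**Figure D4:**
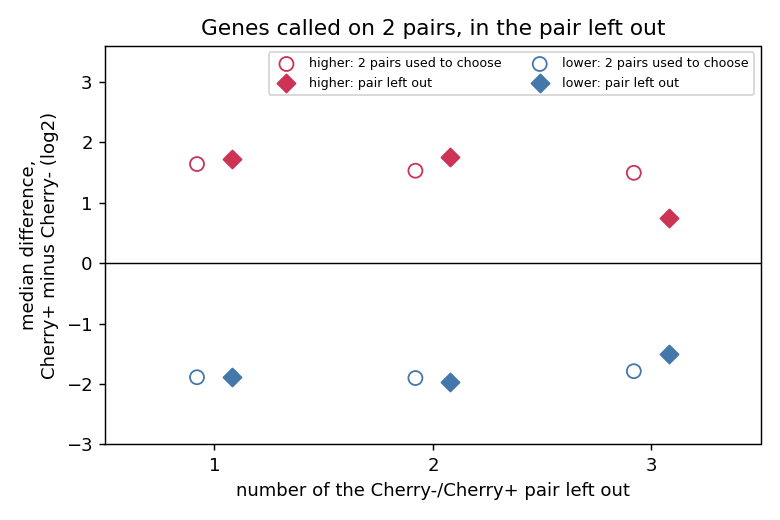
For each same-numbered Cherry-/Cherry+ pair left out in turn, open circles give the median log2 difference of the genes called by at least 1 log2 unit in the remaining libraries, and diamonds the median of the same genes in the pair left out. In pair 3 the diamond for genes called higher is at 0.754 and the circle at 1.497, while for pairs 1 and 2 the 2 symbols lie close together.

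The day 10 libraries share no library with the day 5 difference and give a further reading of the same genes. Of the 77 genes with a rise of at least 3 log2 units at day 5, 77 were higher in Cherry+ cells at day 10, where 46.8% of all genes tested were, and 68 were called higher, where 17.4% of all genes were. Of the 144 genes with a fall of at least 3, 144 were lower at day 10 (53.2% of all genes) and 143 were called lower (21.5% of all genes). For rises of 2 to 3 and of 1 to 2 log2 units, 87.6% and 71.4% were called higher at day 10. For falls of the same sizes, 97.7% and 83.8% were called lower. Calls at both days share 1 estimate of each gene's spread, which favours genes of low spread at both.

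The largest rises and the largest falls went different ways in size between the days. The 77 large rises had a median difference of 3.28 at day 5 and 2.10 at day 10, and 76 of them were nearer to 0 at day 10. Their median levels in Cherry- cells were 8.12, 7.78 and 7.53 in day 10 replicates 1, 2 and 3, above the day 5 Cherry- libraries, and in Cherry+ cells 9.66, 9.90 and 9.85, within the range of the day 5 Cherry+ libraries. The 144 large falls had a median of -3.40 at day 5 and -3.99 at day 10, and 27 were nearer to 0 at day 10. Their Cherry- levels were alike at the 2 days, at 9.01, 8.92 and 9.05 in day 10 replicates 1, 2 and 3, and the Cherry+ levels were 5.50, 4.91 and 4.35. When the lowest of these, day 10 Cherry+ replicate 3, was left out, the day 10 median was -3.74, and 46 genes were nearer to 0. The falls of 2 to 3 log2 units had medians of -2.43 and -2.74 at days 5 and 10, with 194 of 577 nearer to 0 at day 10. Smaller falls did not share this: those of 1 to 2 log2 units had medians of -1.41 and -1.39 (596 of 1166 nearer to 0), and those under 1 had medians of -0.67 and -0.54 (731 of 1187 nearer to 0). Rises were nearer to 0 at day 10 in 205 of 226, 616 of 789 and 1367 of 1904 genes in the classes of 2 to 3, 1 to 2 and under 1 log2 unit.

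Choosing genes for a large change at day 5 by itself favours smaller changes at another day, in both directions. Gene by gene, the day 5 difference was not shown to differ from the day 10 difference. In limma 0 of 15842 genes passed for that contrast, the smallest adjusted p was 0.192, and 1613 genes had an unadjusted p under 0.05. Leaving out day 5 Cherry+ replicate 3 gave 107 genes. Of the day 10 Cherry+ libraries, leaving out replicate 1 gave 161 and leaving out replicate 3 gave 11. In the main fit, 17 genes passed the threshold within each day but with opposite signs. Their differences were positive at the earlier day and negative at the later one, and 0 genes had the reverse order. The contrast between the days passed for none of these 17 genes.

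The 4 genes below had, in each direction, the largest difference relative to its error among genes called, changed by at least 1 log2 unit and without overlap between the groups, so their day 5 values are given as a description. The gene uc007cee.1 had levels of 8.93, 8.93 and 8.76 in Cherry- replicates 1, 2 and 3 and of 11.21, 11.32 and 10.78 in Cherry+ replicates 1, 2 and 3. The groups were far apart, and Cherry+ replicate 3 was the lowest of its group. Between means of 8.87 ± 0.0965 and 11.10 ± 0.288 (SD, n = 3) the difference was 2.23 ± 0.137 (SE), or 4.69-fold, and limma gave an adjusted p of 2.24e-06. At day 10 it was 1.65 (adjusted p = 4.93e-06 in limma), with Cherry- levels of 9.24, 9.22 and 9.17 and Cherry+ levels of 10.77, 10.83 and 10.98.

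The gene uc007ofx.1 had levels of 10.52, 10.24 and 10.37 in Cherry- replicates 1, 2 and 3 and of 13.28, 13.23 and 13.90 in Cherry+ replicates 1, 2 and 3. Here Cherry+ replicate 3 was the highest library, in contrast to most large rises. The difference was 3.09 ± 0.193 (SE), or 8.54-fold, between 10.38 ± 0.144 and 13.47 ± 0.372 (SD, n = 3), and limma gave an adjusted p of 2.35e-06. At day 10 it was 2.33 (adjusted p = 4.87e-06 in limma), with Cherry- levels of 10.66, 10.62 and 10.29 and Cherry+ levels of 13.15, 12.76 and 12.65.

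The gene uc008mgg.2 had levels of 11.25, 11.61 and 11.52 in Cherry- replicates 1, 2 and 3 and of 7.86, 7.66 and 7.80 in Cherry+ replicates 1, 2 and 3. The Cherry+ libraries had an SD of 0.104 around 7.78 and the Cherry- libraries one of 0.188 around 11.46 (n = 3 each). The difference was -3.68 ± 0.144 (SE), a level 12.8-fold lower, and limma gave an adjusted p of 3.54e-07. At day 10 it was -4.41 (adjusted p = 4.74e-08 in limma), with Cherry- levels of 11.10, 11.06 and 11.26 and Cherry+ levels of 6.999, 6.60 and 6.60.

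The gene uc007rdk.1 had levels of 12.40, 12.59 and 12.54 in Cherry- replicates 1, 2 and 3 and of 10.03, 9.75 and 9.76 in Cherry+ replicates 1, 2 and 3. The difference of -2.67 ± 0.123 (SE), 6.35-fold lower, had an adjusted p of 5.42e-07 in limma. At day 10 it was -2.73 (adjusted p = 2.13e-07 in limma), the nearest match between the days among the 4 genes. For none of the 4 did the difference between the days pass the threshold, with adjusted p of 0.334 for uc007cee.1, 0.365 for uc007ofx.1, 0.269 for uc008mgg.2 and 0.950 for uc007rdk.1 in limma.

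**Figure D5:**
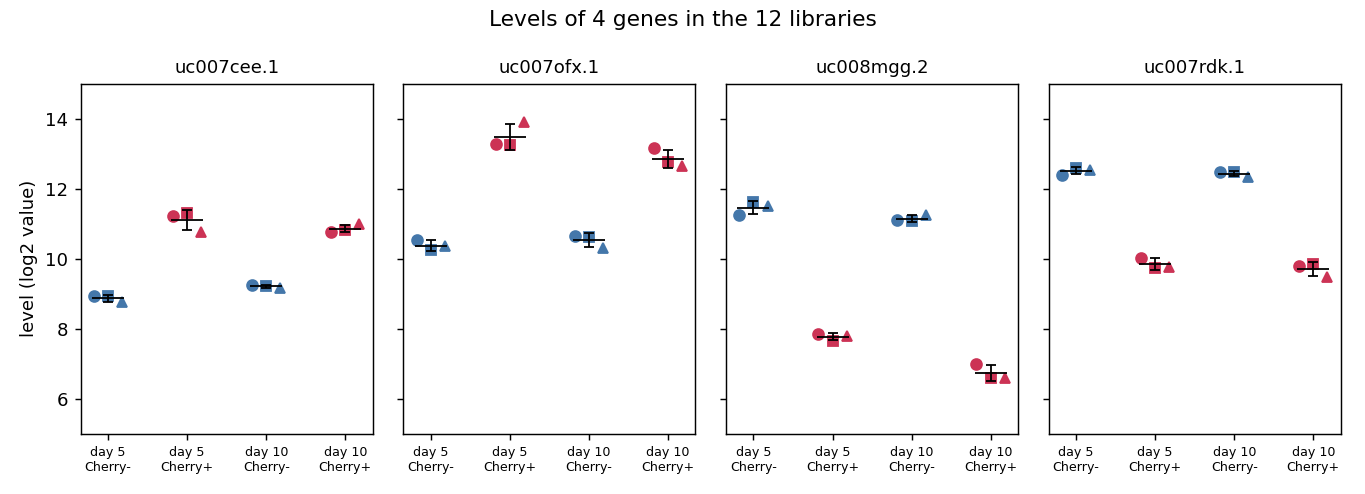
Points are log2 levels in single libraries, blue for Cherry- and red for Cherry+, with replicates 1, 2 and 3 as circle, square and triangle; the black bar is the mean and the whiskers the SD of the 3 libraries. In all 4 genes the Cherry+ and Cherry- libraries are separated at both days, for example 7.66 to 7.86 against 11.25 to 11.61 for uc008mgg.2 at day 5.

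Which group varied more depended on the measure. Over all genes tested, the mean root mean square difference between 2 libraries was 0.617 log2 units within Cherry- cells and 0.543 within Cherry+ cells. Counted by gene, the SD among the 3 Cherry+ libraries exceeded that among the 3 Cherry- libraries in 60.6% of genes tested. The share was 72.3% of the genes called higher, 64.2% of those called lower and 55.9% of those not called. Among genes called higher the median SD was 0.280 in Cherry+ and 0.156 in Cherry- cells, and among those not called 0.253 and 0.189 (n = 3 each). These shares describe 3 libraries a group and were not tested.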

How the data were processed

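The authors deposited 1 table of log2 values, library-size-adjusted as far as the values show, with 1 column per library. Build mm10, Bowtie2, DESeq2 1.12.4 and RSEM 1.2.29 are listed in the submitters' processing notes, and for their roles and for the log2 transform nothing is stated in the sources used here. Of 32958 rows, 7764 were at 0 in every library and were dropped. The filter asked for a log2 value of 3.32 or more, a linear 10, in 3 of 12 libraries, and left 15842 genes. Differences were tested two-sided with limma 3.58.1 in R 4.3.3 over all 4 groups, with a mean-dependent prior and 8 residual degrees of freedom, and p-values were adjusted by Benjamini-Hochberg over all genes tested. The fit was tested on simulated data.

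At day 5 same-numbered Cherry- and Cherry+ libraries deviated together from their group means across genes (correlations of 0.254, 0.161 and 0.228), and their source names share a letter. The numbers were therefore taken to pair the libraries where pairs were left out and in the replicate block given below. No pairing is stated in the labels, and the main fit, which gave the calls, intervals and p-values above, held none. The members of the comparison, the gene classes and the alternatives were chosen with earlier results of these data known. Without symbols, the rule for named genes took the 2 identifiers per direction with the largest moderated t among genes called, changed by at least 1 log2 unit and without overlap; gene lists could not be used. Figures were drawn with matplotlib 3.10.9.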

Additional observations from a re-analysis of the deposited data

How the results depend on the processing

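The count of genes called at day 5, 6070, lay between 4561 and 6780 with 1 library left out and between 5322 and 9056 under the other alternatives, with the upper end given by library quality weights. Those weights called 4661 genes lower in place of 3074. With the replicate block, 6173 genes were called (3071 higher, 3102 lower), and 5611 with the block in the 6 day 5 libraries alone, a fit chosen after seeing the data. The block changed no call of the 4 named genes, and it moved neither the counts called in each direction nor those changed by at least 1 log2 unit by over 1.5 times. It was not run for the other counts. Genes called and changed by at least 1 log2 unit lay between 865 and 1455 for rises and between 1567 and 2093 for falls. Without Cherry- replicate 1 and Cherry+ replicate 3 of day 5, rises of at least 2 log2 units numbered 470 in place of 303, and changes of at least 3 numbered 181 rises and 240 falls, and 168 genes with a level under 5 were called higher in place of 80.

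The contrast between the days, 0 genes, gave 0 to 161 with 1 library left out, 18 with library quality weights and 74 without those 2 libraries. The cause was not tested. Estimation of the weights ended short of its convergence tolerance. The 4 named genes kept their direction and an adjusted p under 0.05 in all 24 alternatives, with limma's adjusted p at most 0.000214. The values give no read counts, so no limit from depth could be set, and pseudocounts and count models were not run.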
